A study of Mus musculus with 3530 samples.

Results

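The series holds 3530 single cells from medial prefrontal cortex of mice, and 1304 of them were neurons of Fear-Recall or Fear-Only mice in which at least 1 sequencing read matched the tdTomato reporter. Every cell with a reporter read was taken, whatever its sorting gate. Fear-Recall animals gave 836 such cells of 1342, from 5 animals, and Fear-Only animals gave 468 of 841, from 5 animals. The reporter read itself chose the cells, so the reporter is described and not tested.

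All animals of the series were TRAP2;Ai14 mice of a study of contextual fear conditioning, and the labels name the conditions Fear-Recall, Fear-Only, Context-Only and Homecage. Fear-Recall, Fear-Only and Homecage have animals numbered 1 to 5, Context-Only has animals 2 to 5 and a second animal 5, and animals with the same number are called a set here. Context-Only and Homecage entered the fit with 5 and 3 sums to help estimate the spread. The labels state neither the training schedule, the tamoxifen, the sex nor the age of the animals. Cells were papain-dissociated and made into Smart-seq2 libraries, which cover whole transcripts and carry no molecular identifiers.

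TRAP2 places a tamoxifen-dependent Cre recombinase under the control of the Fos gene, and Ai14 is a tdTomato gene that Cre switches on for good. A neuron that fires strongly while the drug is present is therefore marked for the rest of its life. Neuronal firing opens calcium channels, calcium-dependent kinases activate the transcription factor CREB, and the immediate early genes, which include Fos, Arc, Npas4 and the Egr family, are transcribed within minutes. Their products then adjust synapses, so long-lasting changes in such cells are studied as a possible substrate of remote memory. The comparison asks how marked neurons differ between trained mice with and without the recall condition.

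The reporter-read cells numbered 101, 268, 327, 95 and 45 in Fear-Recall animals 1 to 5, against 36, 121, 268, 4 and 39 in Fear-Only animals 1 to 5. Fear-Only animal 4 fell under the minimum of 10 cells per animal and entered no sum, which left 5 Fear-Recall and 4 Fear-Only animals. Just inside the threshold, 32 of the 836 Fear-Recall cells and 21 of the 468 Fear-Only cells had exactly 1 reporter read, and the 879 cells just outside had none. The median reporter level per member cell, in CPM (reads scaled to the library total), was 180.1, 38.8, 41.7, 26.4 and 16.3 in Fear-Recall animals 1 to 5, and 249, 12.8, 24.9 and 8.82 in Fear-Only animals 1, 2, 3 and 5. The animals numbered 1 had the highest level of each condition. In Fear-Only animal 1 all 36 cells held a reporter read, so that animal has no reporter-free cells. Titles give a sorting gate in sets 2 to 4, where 662 Fear-Recall and 374 Fear-Only member cells came from the pos gate and 28 and 19 from the neg gate. No gate is given for the cells of sets 1 and 5.

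The summed counts held 51716701 to 228676189 reads per Fear-Recall animal and 17831821 to 219442745 per Fear-Only animal. The titles carry a unit code, a p or T with a number. Within a set no such code was shared by member cells of both conditions, so condition and coded unit cannot be told apart. The title codes of set 1 name 6 units for Fear-Recall and 1 for Fear-Only, and the labels do not say whether these are animals or plates. If they are animals, that Fear-Recall sum pools several mice.

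The members were checked against neuron markers. Each cluster was called excitatory or inhibitory by whichever marker mean was higher, so no member could fall outside these classes. The vesicular glutamate transporter gene Slc17a7 ranged from 64.2 to 132.8 CPM in Fear-Recall and from 39.1 to 112.3 CPM in Fear-Only. Gad1, which encodes a GABA-synthesising enzyme, ranged from 443 to 1101 CPM in Fear-Recall and from 153.5 to 1389 CPM in Fear-Only. Summed microglia markers ranged from 26.8 to 85.4 CPM in Fear-Recall and from 36.2 to 48.6 CPM in Fear-Only, and endothelial and mural markers from 3.07 to 12.1 CPM in Fear-Recall and from 3.65 to 24.6 CPM in Fear-Only. The 10 astrocyte markers summed to 114 to 407 CPM in Fear-Recall and 179.05 to 318.9 CPM in Fear-Only, and the 11 oligodendrocyte and precursor markers to 52.9 to 121 CPM in Fear-Recall and 61.8 to 173.9 CPM in Fear-Only. Of the defining glial genes, Aqp4, Gfap, Mog and Cx3cr1 were at 0 in at least 1 animal of each condition.

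No difference in the cell types among the members passed a test over animals. Inhibitory neurons made up 32.7% ± 5.001 of member cells in Fear-Recall (SD, n = 5) and 38.4% ± 8.95 in Fear-Only (n = 4). The difference of -5.66 percentage points had p = 0.278 in a two-sided exact permutation test over animals, in which the smallest possible p was 0.00794. Clusters led by Rprm, a gene of deep-layer corticothalamic neurons, held 17.9% ± 5.12 of member cells in Fear-Recall and 27.1% ± 10.3 in Fear-Only (exact permutation p = 0.143). Slc30a3 encodes the vesicular zinc transporter of intratelencephalic neurons. Excitatory clusters with it anywhere among their 10 leading genes, called Slc30a3-led here, held 35.004% ± 9.81 in Fear-Recall and 21.97% ± 11.2 in Fear-Only (exact permutation p = 0.119). Inhibitory clusters with Vip among their first 4 leading genes, called Vip-led here, held 23.8% ± 6.17 in Fear-Recall and 27.5% ± 8.18 in Fear-Only (exact permutation p = 0.452). Sst-led clusters held 4.25% ± 2.68 in Fear-Recall and 6.42% ± 5.33 in Fear-Only (exact permutation p = 0.508). None of these 5 differences passed its test, which does not show that the shares were equal. Within sets 1, 2, 3 and 5 none of the 5 had the same sign throughout.

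Member cells had a median of 7318 ± 858 detected genes in Fear-Recall (SD over 5 animals) and 6637 ± 620 in Fear-Only (4 animals), with an exact permutation p = 0.214. After every cell was thinned to 100000 reads the medians were 6211 ± 744 in Fear-Recall and 5586 ± 413 in Fear-Only (exact permutation p = 0.175). The 50 most abundant genes of a cell took 19.7% ± 2.17 of its reads in Fear-Recall and 21.6% ± 1.72 in Fear-Only (exact permutation p = 0.183). Each of the 4 sets had the lower value in its Fear-Recall animal, by 1.81, 1.19, 1.24 and 1.04 percentage points in sets 1, 2, 3 and 5 (two-sided exact sign-flip permutation within sets, p = 0.125, the smallest that 4 sets allow). In these sums, fewer cells of a type and less RNA per cell cannot be told apart.

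**Figure D1:**
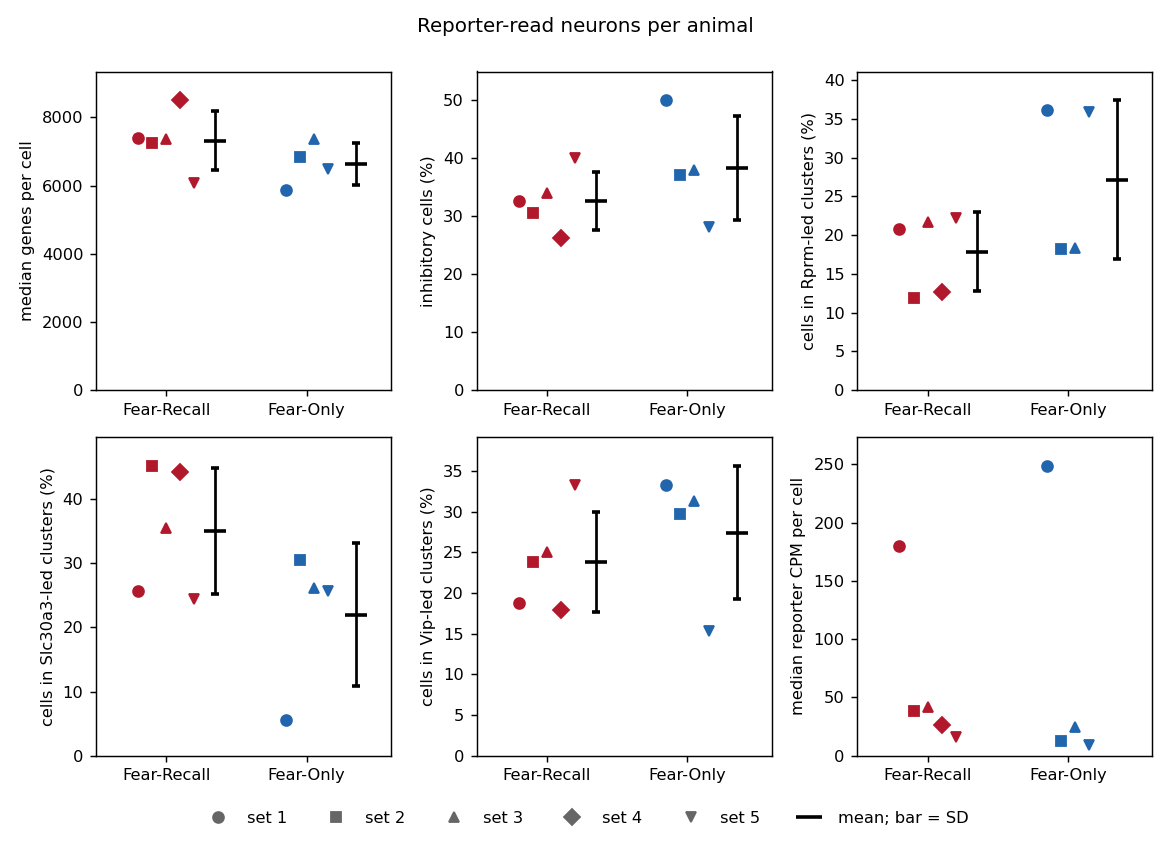
Each point is 1 animal's reporter-read cells, with Fear-Recall (red) left of Fear-Only (blue) and the marker shape giving the set; vertical axes give median genes per cell, percentages of cells or median reporter CPM. Black bars are means with SD, omitted for the reporter, where Fear-Only animal 1 stood at 249 CPM and the other 3 Fear-Only animals between 8.82 and 24.9 CPM.

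No gene passed the adjusted test between Fear-Recall and Fear-Only reporter-read neurons. edgeR's quasi-likelihood test with the set as a block, adjusted by Benjamini-Hochberg over 18670 genes, called 0 genes (0.0%), and the smallest adjusted p was 0.9996. Without adjustment, 435 genes (2.33%) had p under 0.05, of which 308 (1.65%) were higher and the rest (0.68%) lower in Fear-Recall. The limma-trend fit also called 0 genes, with 541 under 0.05 unadjusted, and DESeq2 called 19. All 5 Fear-Recall sums lay above all 4 Fear-Only sums for 0.782% of the genes, and all lay below for 0.412%. Fold changes below are log2 of Fear-Recall over Fear-Only from the edgeR fit, and every gene named failed its adjustment. The p-values measure the spread between these animals only.

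The immediate early genes had the highest median of the 18 pathway lists. Of 34 members, all tested, 0 passed the adjusted test, 25 had a fold change above 0 and the median was 0.46, against 10221 of 18670 genes (54.7%) and a median of 0.05 over all genes. An unadjusted p under 0.05 was reached by 5 members on the higher side (1.65% over all genes) and 0 on the lower side (0.68% over all genes). Because the cells were chosen by a Fos-driven reporter, the list is not independent of the way they were marked. Among the 27 members averaging at least 3 log2 CPM, 20 were above 0 with a median of 0.38, against 50.8% and a median of 0.01 of the 8887 genes at that level.

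Npas4, Egr4 and Dusp1 had the smallest p among the immediate early genes, and their promoters are shown because all of them carry the core of the cAMP response element, the sequence bound by CREB. The windows run from 250 bases before to 50 after the RefSeq transcription start (build GRCm38.p6), and capitals mark every TGACG and its reverse complement CGTCA, which overlap where the full element TGACGTCA is present. Npas4 is at chr19:4989922-4990221, Egr4 at chr6:85513540-85513839 and Dusp1 at chr17:26508423-26508722, all on the minus strand.
Npas4: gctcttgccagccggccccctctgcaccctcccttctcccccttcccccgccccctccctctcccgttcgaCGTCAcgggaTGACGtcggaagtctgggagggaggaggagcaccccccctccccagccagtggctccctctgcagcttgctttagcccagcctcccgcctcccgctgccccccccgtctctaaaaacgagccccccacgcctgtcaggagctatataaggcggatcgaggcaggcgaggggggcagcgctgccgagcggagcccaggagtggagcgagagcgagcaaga
Egr4: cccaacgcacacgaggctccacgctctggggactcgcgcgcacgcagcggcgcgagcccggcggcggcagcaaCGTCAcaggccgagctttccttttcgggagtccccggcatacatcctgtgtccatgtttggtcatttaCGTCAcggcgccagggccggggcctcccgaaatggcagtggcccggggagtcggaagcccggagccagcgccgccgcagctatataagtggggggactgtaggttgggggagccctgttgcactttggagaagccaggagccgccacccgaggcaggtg
Dusp1: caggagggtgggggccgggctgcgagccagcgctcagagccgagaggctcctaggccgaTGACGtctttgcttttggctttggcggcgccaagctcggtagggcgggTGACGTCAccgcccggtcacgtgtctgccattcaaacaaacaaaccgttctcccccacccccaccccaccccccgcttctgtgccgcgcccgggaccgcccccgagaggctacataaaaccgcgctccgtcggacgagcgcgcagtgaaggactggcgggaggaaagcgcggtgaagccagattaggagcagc
Npas4 and Egr4 held 2 marked half-sites each and Dusp1 held 3, of which a pair forms the full element. At least 1 half-site was present in 18 of the 25 immediate early genes with a promoter entry (72%), in 34.1% of the 11661 tested genes with an entry and in 20.8% of all 32851 windows. The full element was present in 3 of the 25 (12%) and in 3.499% of the tested genes. Members with a half-site had a median fold change of 0.73 (14 of 18 above 0), and the 7 without one a median of 0.23 (4 above 0). A match describes these letters only and does not show that CREB bound there.

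Npas4 encodes a neuron-specific transcription factor that is induced by calcium entry and organises inhibitory synapses. It had 29.6, 40.5, 23.8, 89.5 and 43.2 CPM in Fear-Recall animals 1 to 5, against 22.3, 17.7, 10.8 and 20.01 CPM in Fear-Only animals 1, 2, 3 and 5. All 5 Fear-Recall animals were above all Fear-Only animals, though animal 3 of Fear-Recall and animal 1 of Fear-Only nearly met. The fold change was 1.08 ± 0.32 (SE, unadjusted p = 0.00527), and the differences within sets 1, 2, 3 and 5 were 0.41, 1.19, 1.14 and 1.11. Context-Only animals ranged from 15.5 to 39.4 CPM and Homecage animals from 21.4 to 54.1 CPM, and both ranges overlapped with Fear-Recall and with Fear-Only. It was higher in each class alone, with log2 fold changes of 0.93 in excitatory and 1.45 in inhibitory neurons, where the groups overlapped. One cell gave up to 30.3% of an animal's Npas4 reads.

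Arc, which encodes a capsid-like protein that regulates AMPA receptor trafficking, had 201, 249, 354, 739 and 474 CPM in Fear-Recall animals 1 to 5, against 248, 122.6, 124.3 and 174.3 CPM in Fear-Only animals 1, 2, 3 and 5. The groups overlapped, because Fear-Recall animal 1 lay within the Fear-Only range. Its fold change was 1.07 ± 0.44 (SE, unadjusted p = 0.0308), with set differences of -0.30, 1.03, 1.51 and 1.44. Set 1 thus differed in sign from the other 3 sets.

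Dusp1, a phosphatase that switches off MAP kinases, had 159.7, 319, 320.2, 615 and 906 CPM in Fear-Recall animals 1 to 5, against 156.5, 248 and 307 CPM in Fear-Only animals 1, 2 and 5, and Fear-Only animal 3 lay just below animal 1. Its fold change was 0.83 ± 0.33 (SE, unadjusted p = 0.0252), and the groups overlapped, with the highest values in animals 4 and 5 of Fear-Recall. Egr4, a zinc-finger transcription factor, had 51.2, 35.5, 33.8, 33.1 and 162 CPM in Fear-Recall animals 1 to 5, against 35.2, 38.1, 18.1 and 53.9 CPM in Fear-Only animals 1, 2, 3 and 5. Fear-Recall animal 5 stood alone at 162 CPM and the other 4 Fear-Recall animals lay within the Fear-Only range. Its fold change was 0.82 ± 0.26 (SE, unadjusted p = 0.00832).

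Jun, a subunit of the AP-1 transcription factor, completed the members under an unadjusted p of 0.05, with 233 ± 114 CPM in Fear-Recall (SD, n = 5) and 130.5 ± 41.8 CPM in Fear-Only (n = 4) and a fold change of 0.74 ± 0.32 (SE, unadjusted p = 0.0381). Fos itself, whose promoter drives the recombinase, averaged 358 ± 114.5 CPM in Fear-Recall (SD, n = 5) and 329 ± 226.6 CPM in Fear-Only (n = 4). Its fold change of 0.06 ± 0.38 (SE, unadjusted p = 0.875) was near 0, with set differences of -0.52, -0.66, 1.14 and 0.66. Context-Only animals ranged from 79.3 to 189.5 CPM for Jun and from 296 to 371.5 CPM for Fos. Homecage animals ranged from 111.9 to 230.7 CPM for Jun and from 318.7 to 681.6 CPM for Fos. Egr1, a zinc-finger transcription factor, averaged 583 ± 129 CPM in Fear-Recall (SD, n = 5) and 579.6 ± 188.9 CPM in Fear-Only (n = 4) and a fold change of 0.07 ± 0.19 (SE, unadjusted p = 0.712). Nr4a1, a nuclear receptor, had a fold change of -0.05 ± 0.66 (SE, unadjusted p = 0.946) and set differences of -2.01, -1.17, 1.84 and 0.77, which spanned both signs. Among members averaging at least 3 log2 CPM the lowest fold changes were those of Ier3 at -0.64 ± 0.47 (SE, unadjusted p = 0.192), Nr4a2 at -0.26 ± 0.47 (SE, unadjusted p = 0.586) and Homer1 at -0.22 ± 0.26 (SE, unadjusted p = 0.398).

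The list's median was above 0 in 2 of the 4 sets. It was -0.26 in set 1 (15 of 34 above 0), -0.04 in set 2 (17 above 0), 0.84 in set 3 (30 above 0) and 0.66 in set 5 (24 above 0). Medians over all 18670 genes were at most 0.02 in the same sets, with 9402, 9510, 9355 and 8451 genes above 0. The median was 0.32 in excitatory neurons alone (34 members) and 0.78 in inhibitory neurons alone (32 members). Over 26 other settings, 1 of which removed no sum, it ranged from 0.31 to 0.78 and exceeded the median over all genes in 26. In reporter-free neurons of the same conditions the 34 members had a median of 0.28, with 25 above 0. Over the 17908 of the 18670 genes also tested there the median was -0.0045, with 8873 above 0.

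**Figure D2:**
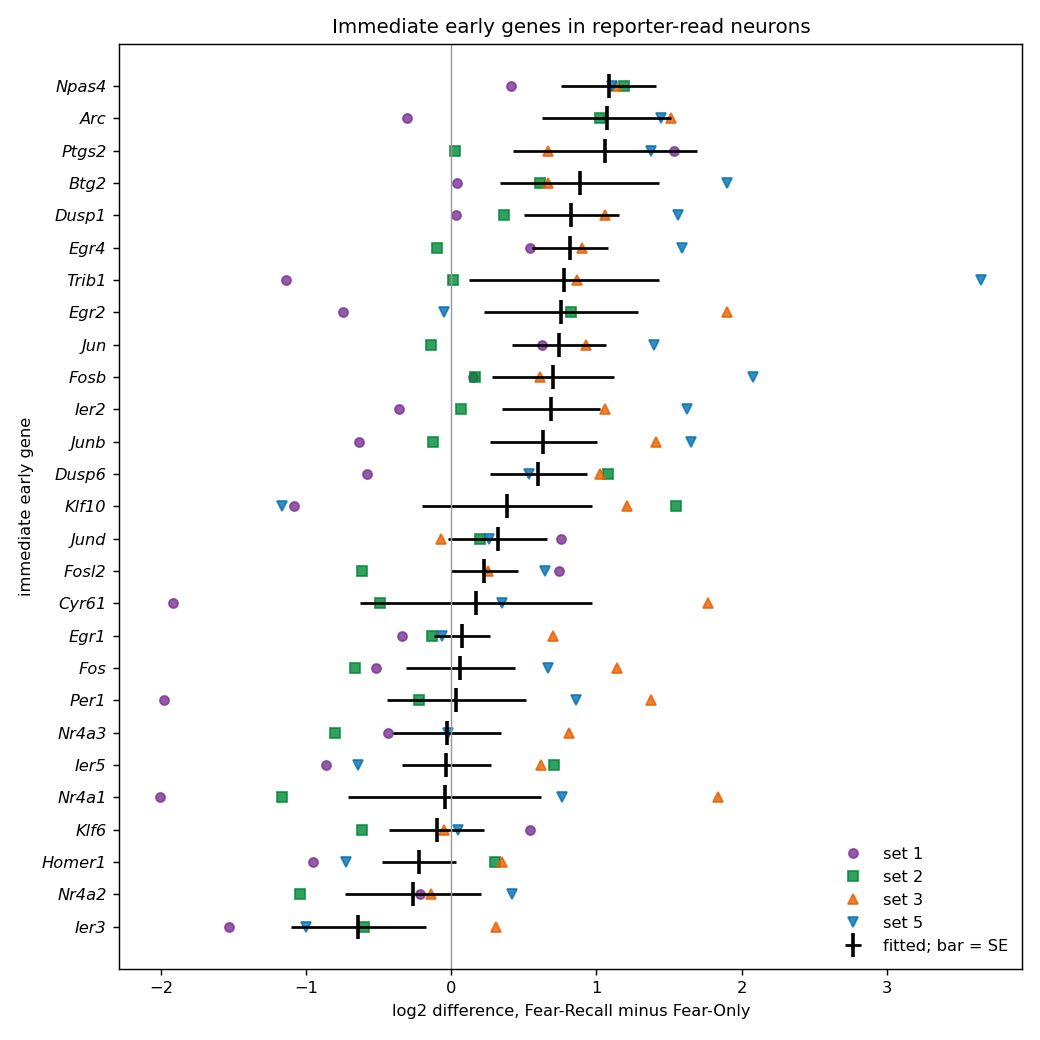
Log2 differences between Fear-Recall and Fear-Only (horizontal axis) for the 27 immediate early genes averaging at least 3 log2 CPM (vertical axis), ordered by the fitted fold change; coloured points are the 4 sets and black ticks the edgeR fit with its SE. Set 3 (orange) lies right of 0 for most genes and set 1 (purple) on both sides.

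Among all genes averaging at least 4 log2 CPM, the 8 of smallest p on the higher side were Hapln4, Cntn4, Trmt1, Ppm1l, Tnpo3, Anp32e, Npas4 and Camkk2. None passed. Hapln4 encodes a link protein of the hyaluronan matrix around synapses and perineuronal nets, and had 103, 44.9, 35.3, 34.9 and 47.7 CPM in Fear-Recall animals 1 to 5, against 39.01, 18.6, 19.3 and 39.4 CPM in Fear-Only animals 1, 2, 3 and 5. Fear-Recall animal 1 was far above the rest, and the remaining Fear-Recall animals overlapped with Fear-Only animals 1 and 5. The fold change was 0.998 ± 0.26 (SE, unadjusted p = 0.00182), and it was positive in all 4 sets at 1.40, 1.27, 0.87 and 0.28.

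Cntn4, on chromosome 6 from 105677660 to 106699310, encodes a contactin of the immunoglobulin superfamily that acts in axon guidance and adhesion. It had 26.4, 15.5, 30.1, 19.4 and 24.9 CPM in Fear-Recall animals 1 to 5, against 9.62, 10.6, 14.2 and 13.5 CPM in Fear-Only animals 1, 2, 3 and 5. The groups did not overlap, and the fold change was 1.01 ± 0.28 (SE, unadjusted p = 0.00288). Excitatory neurons alone gave 1.13 and inhibitory neurons alone 0.70.

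Camkk2 encodes the calcium/calmodulin-dependent kinase kinase that activates CaM kinases and AMPK. It had 74.9, 114, 114.8, 140.2 and 70.1 CPM in Fear-Recall animals 1 to 5, against 50.02, 58.5, 76.2 and 60.0 CPM in Fear-Only animals 1, 2, 3 and 5. Only Fear-Only animal 3 reached into the Fear-Recall range, and the fold change was 0.65 ± 0.20 (SE, unadjusted p = 0.00566). Ppm1l, a membrane-bound protein phosphatase that restrains stress kinases, had 88.3, 98.1, 76.5, 155.8 and 103 CPM in Fear-Recall, against 37.4, 78.2, 62.6 and 57.4 CPM in Fear-Only, with animals in the same order. Its fold change was 0.68 ± 0.20 (SE, unadjusted p = 0.0045), and Fear-Recall animal 3 lay just below Fear-Only animal 2.

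Tnpo3, an importin for splicing factors, averaged 64.9 ± 22.9 CPM in Fear-Recall (SD, n = 5) and 36.8 ± 17.6 CPM in Fear-Only (n = 4), with a fold change of 0.75 ± 0.22 (SE, unadjusted p = 0.00454). Trmt1, a tRNA methyltransferase, averaged 60.0 ± 13.8 CPM in Fear-Recall (SD, n = 5) and 39.7 ± 10.4 CPM in Fear-Only (n = 4), with a fold change of 0.52 ± 0.15 (SE, unadjusted p = 0.0045). Anp32e, a histone chaperone, averaged 47.2 ± 13.9 CPM in Fear-Recall (SD, n = 5) and 30.8 ± 10.003 CPM in Fear-Only (n = 4), with a fold change of 0.68 ± 0.20 (SE, unadjusted p = 0.00519). In these 3 genes the groups overlapped, but Fear-Recall was the higher member in 4 of 4 sets. That direction in all 4 sets was seen in 1397 genes (7.48%). The test had the set as a block, so a small p already favours such agreement.

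On the lower side the 8 genes of smallest p were Plekhb1, Tmsb10, Slc25a1, Pafah1b3, Csnk2a1, Grik3, Ifi27 and Hs3st4. Plekhb1, on chromosome 7 from 100642892 to 100662414, encodes a pleckstrin-homology protein of membrane traffic. It had 36.6, 19.9, 34.1, 20.6 and 27.9 CPM in Fear-Recall animals 1 to 5, against 127.1, 41.0, 60.4 and 49.6 CPM in Fear-Only animals 1, 2, 3 and 5. The groups did not overlap, and Fear-Only animal 1 was far above the other Fear-Only animals. The fold change was -1.21 ± 0.22 (SE, unadjusted p = 0.0001), the smallest p of any named gene, with set differences of -1.79, -1.04, -0.82 and -0.83. DESeq2 called it, with an adjusted p of 0.00131, whereas edgeR did not. Context-Only animals ranged from 27.2 to 63.1 CPM and Homecage animals from 31.5 to 68.1 CPM. In excitatory neurons alone the fold change was -1.29, and leaving out single animals of the comparison gave -1.32 to -1.03.

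Slc25a1 encodes the mitochondrial citrate carrier, which supplies the cytosol with acetyl groups. It had 29.7, 27.6, 33.3, 36.6 and 40.9 CPM in Fear-Recall animals 1 to 5, against 53.2, 43.7, 41.1 and 64.5 CPM in Fear-Only animals 1, 2, 3 and 5. The groups just failed to overlap and the fold change was -0.60 ± 0.15 (SE, unadjusted p = 0.00181). DESeq2 gave an adjusted p of 0.0499. Pafah1b3, a subunit of the enzyme that inactivates platelet-activating factor, averaged 37.7 ± 5.96 CPM in Fear-Recall (SD, n = 5) and 59.6 ± 15.8 CPM in Fear-Only (n = 4), with a fold change of -0.62 ± 0.17 (SE, unadjusted p = 0.00256). Csnk2a1, the catalytic subunit of casein kinase 2, averaged 33.1 ± 11.6 CPM in Fear-Recall (SD, n = 5) and 55.8 ± 23.8 CPM in Fear-Only (n = 4), with a fold change of -0.57 ± 0.16 (SE, unadjusted p = 0.00407).

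Ifi27, an interferon-inducible gene, had 40.4, 29.0, 42.8, 14.3 and 29.5 CPM in Fear-Recall animals 1 to 5, against 64.8, 72.8, 60.3 and 63.7 CPM in Fear-Only animals 1, 2, 3 and 5. Fear-Only values were tightly grouped and above every Fear-Recall value, and the fold change was -1.04 ± 0.32 (SE, unadjusted p = 0.00602). Hs3st4, a heparan sulfate sulfotransferase, had 17.4, 22.02, 44.4, 30.3 and 31.1 CPM in Fear-Recall animals 1 to 5, against 73.2, 49.1, 44.4 and 71.2 CPM in Fear-Only animals 1, 2, 3 and 5. Fear-Recall animal 3 and Fear-Only animal 3 were level, and the fold change was -1.05 ± 0.33 (SE, unadjusted p = 0.00663). Tmsb10, which binds actin monomers, had 488, 536, 604, 338 and 248 CPM in Fear-Recall animals 1 to 5, against 799.7, 937, 609 and 424 CPM in Fear-Only animals 1, 2, 3 and 5. Its groups overlapped, and the fold change was -0.60 ± 0.15 (SE, unadjusted p = 0.00118). Grik3, a kainate receptor subunit, averaged 52.3 ± 22.7 CPM in Fear-Recall (SD, n = 5) and 80.03 ± 40.4 CPM in Fear-Only (n = 4), with a fold change of -0.70 ± 0.20 (SE, unadjusted p = 0.00438). Of the 8 genes, all but Hs3st4 were lower in Fear-Recall in 4 of 4 sets, a direction seen in 1415 genes (7.58%). Choice by small p with the set as a block favours such agreement, so it is no separate support.

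Ifi27, Hs3st4 and Grik3 were among the 10 leading genes of Rprm-led clusters, and Tmsb10 was highest on average in such a cluster. Those clusters held 17.9% of member cells in Fear-Recall and 27.1% in Fear-Only. With their share as a covariate the fold changes were -0.38 for Ifi27, -0.69 for Hs3st4, -0.50 for Grik3 and -0.32 for Tmsb10. The same covariate gave 1.01 for Npas4 and -0.94 for Plekhb1. The part of that share in these fold changes was not tested further. Rprm itself had 123.7, 131, 225, 79.1 and 178.3 CPM in Fear-Recall, against 258.3, 279.7, 225.8 and 295 CPM in Fear-Only, with a fold change of -0.90 ± 0.37 (SE, unadjusted p = 0.0286) and no overlap, although animals 3 of both conditions nearly met. Syt6, another deep-layer gene, had a fold change of -0.92 ± 0.38 (SE, unadjusted p = 0.0313). Leaving out single animals gave -1.17 to -0.51 for Rprm, nearest 0 without Fear-Only animal 2. The upper-layer transcription factor genes Cux2 and Cux1 had fold changes of 1.07 ± 0.49 (SE, unadjusted p = 0.0469) and 0.54 ± 0.28 (SE, unadjusted p = 0.0743). Cux2 was at 0.44 without animal 1 of either condition and at 0.09 in the pos gate alone.

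**Figure D3:**
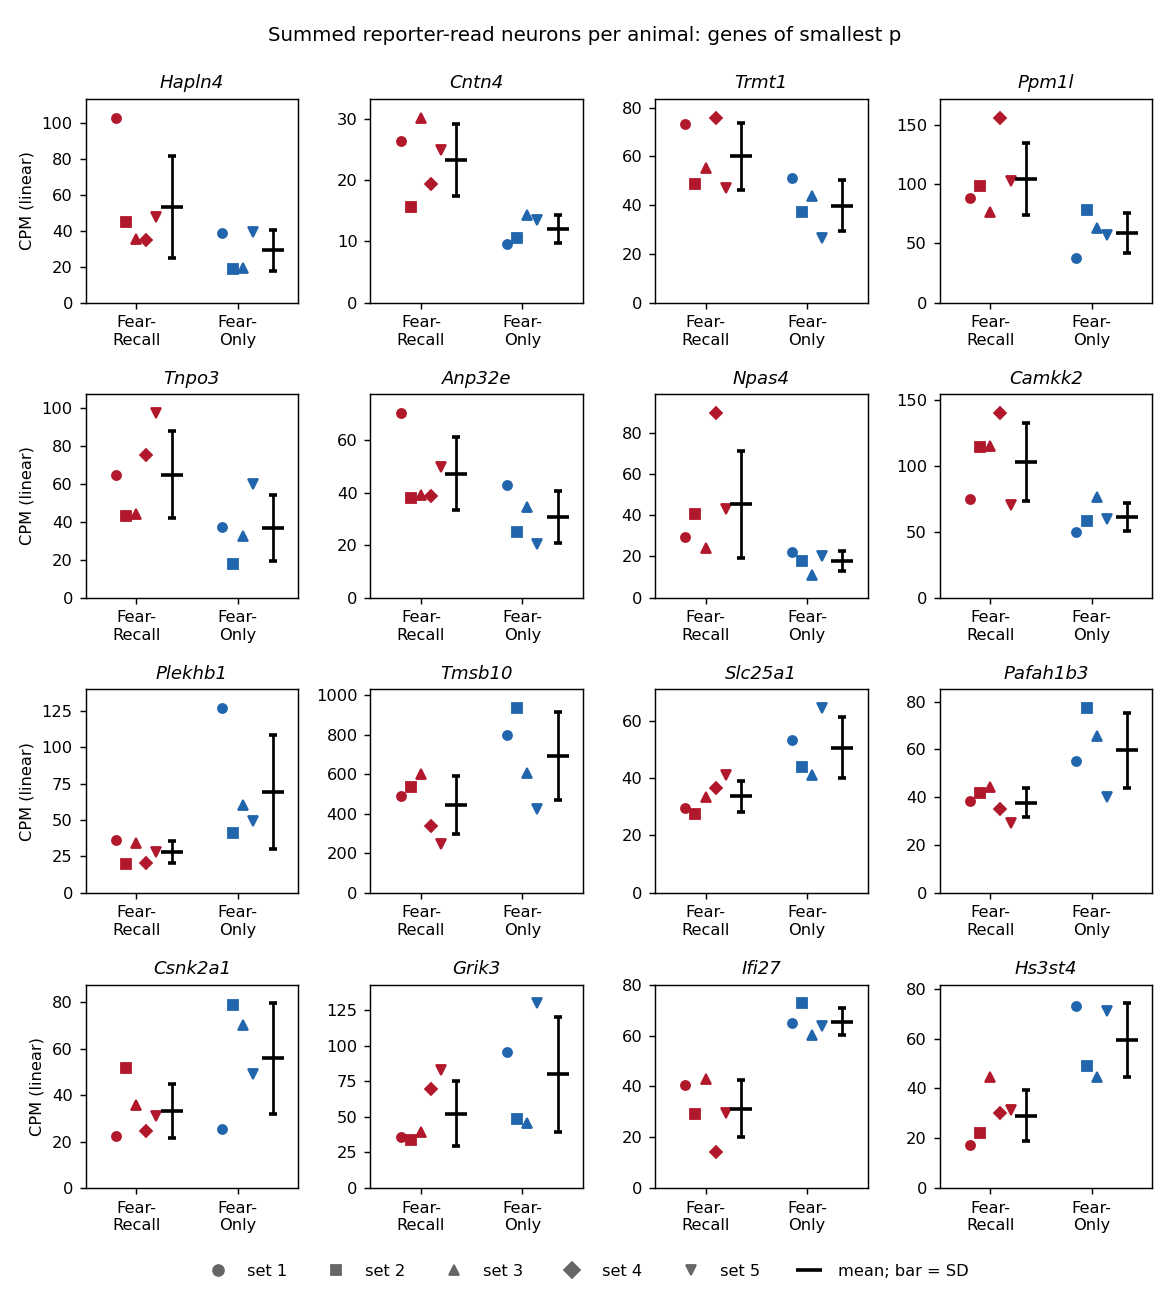
CPM on a linear axis from 0 for the 16 genes of smallest p, 8 higher (top 2 rows) and 8 lower in Fear-Recall, with 1 point per animal, Fear-Recall (red) left of Fear-Only (blue), and means with SD in black. Only Cntn4, Npas4, Plekhb1, Slc25a1 and Ifi27 show no overlap between the groups.

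Synaptic and channel genes were measured through lists that hold 18 pathways in all. None had a member past the adjusted test, and outside the immediate early genes the medians lay between -0.16 and 0.14. Over all genes 54.7% had a fold change above 0. Among 28 activity-regulated secreted and late-response genes 17 were above 0, with a median of 0.10. Rgs4, a brake on G-protein signalling, had 626, 1051, 1028, 1480.0 and 1096 CPM in Fear-Recall, against 448, 613, 627 and 905 CPM in Fear-Only, and a fold change of 0.57 ± 0.19 (SE, unadjusted p = 0.0112). Nrn1, which encodes neuritin, and Nptxr, the neuronal pentraxin receptor, had 0.43 ± 0.22 (SE, unadjusted p = 0.0673) and 0.46 ± 0.24 (SE, unadjusted p = 0.0816).

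Of 71 genes of synaptic vesicle fusion, 2 were under an unadjusted p of 0.05 on the higher side (1.65% over all genes). On the lower side 0 were (0.68% over all genes), and the list's median was 0.05. One of them was Syn1, which tethers vesicles, at 0.39 ± 0.14 (SE, unadjusted p = 0.0167). Stxbp6, an inhibitor of SNARE assembly, had -0.77 ± 0.36 (SE, unadjusted p = 0.0536). The 40 tested Rab genes had a median of -0.02, with 20 above and 20 below 0 (54.7% above 0 over all genes). Rab3gap1, which acts on Rab3, had -0.36 ± 0.17 (SE, unadjusted p = 0.0504), the endosomal Rab11b -0.25 ± 0.13 (SE, unadjusted p = 0.0717) and Rab5b 0.38 ± 0.20 (SE, unadjusted p = 0.0815).

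Glutamate receptors and their scaffolds split evenly. Of 47 tested members, 25 were above 0 (54.7% over all genes), and the median was 0.04. On each side 2 were under an unadjusted p of 0.05 (1.65% higher and 0.68% lower over all genes). Grm2, a metabotropic autoreceptor that dampens release, had 62.1, 47.7, 34.0, 74.3 and 73.6 CPM in Fear-Recall animals 1 to 5, against 15.8, 30.8, 19.9 and 48.9 CPM in Fear-Only animals 1, 2, 3 and 5. Its groups overlapped at Fear-Only animal 5, and the fold change was 0.97 ± 0.30 (SE, unadjusted p = 0.00681). Dlg3, a postsynaptic scaffold, had 0.996 ± 0.43 (SE, unadjusted p = 0.0361), and Grik3 is given above. The 25 GABA-system genes had a median of 0.06 and no member under 0.05 unadjusted. Their smallest p belonged to the receptor subunit genes Gabra2 at 0.60 ± 0.40 (SE, unadjusted p = 0.161) and Gabbr2 at -0.22 ± 0.16 (SE, unadjusted p = 0.178) and to Gad1 at 0.53 ± 0.38 (SE, unadjusted p = 0.191).

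The median over 48 potassium channel genes was 0.14, and 33 of them lay above 0 (54.7% over all genes). The 3 of them under an unadjusted p of 0.05 were all higher (1.65% over all genes). They were the auxiliary subunits Kcnab1 at 0.75 ± 0.26 (SE, unadjusted p = 0.0125) and Kcnab3 at 1.13 ± 0.52 (SE, unadjusted p = 0.047), and the sodium-activated channel Kcnt2 at 1.02 ± 0.43 (SE, unadjusted p = 0.0325). Kcnab1 had 139, 59.6, 42.8, 93.7 and 83.1 CPM in Fear-Recall, against 78.0, 17.9, 33.6 and 70.0 CPM in Fear-Only, and the groups overlapped. Sodium, calcium and HCN channels had a median of 0.07 over 27 tested members. Cacna1g, a T-type calcium channel, had 0.69 ± 0.29 (SE, unadjusted p = 0.0332), the leak channel Nalcn -0.39 ± 0.27 (SE, unadjusted p = 0.165) and the T-type Cacna1i 0.38 ± 0.31 (SE, unadjusted p = 0.242).

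Trans-synaptic adhesion genes had a median of 0.09 over 53 members, with 36 above 0 (54.7% over all genes) and 2 with every Fear-Recall sum above every Fear-Only sum (0.782% over all genes). Lrrc4c, a netrin-G ligand, had 145, 135, 109.2, 152.9 and 122 CPM in Fear-Recall animals 1 to 5, against 68.5, 56.7, 91.7 and 84.6 CPM in Fear-Only animals 1, 2, 3 and 5. Every Fear-Recall animal was above every Fear-Only animal, and the fold change was 0.71 ± 0.24 (SE, unadjusted p = 0.0115). Nlgn1, the neuroligin of excitatory synapses, had 88.6, 86.9, 65.7, 74.1 and 70.7 CPM in Fear-Recall animals 1 to 5, against 60.2, 55.2, 60.7 and 50.2 CPM in Fear-Only animals 1, 2, 3 and 5. These groups did not overlap either, and the fold change was 0.43 ± 0.17 (SE, unadjusted p = 0.027).

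Actin and spine regulators had a median of -0.08, with 36 of 53 below 0, against 8449 of all 18670 genes. Those of smallest p pointed both ways. Dbn1, which encodes drebrin of dendritic spines, had 0.58 ± 0.20 (SE, unadjusted p = 0.011), and Synpo, of the spine apparatus, had 0.55 ± 0.19 (SE, unadjusted p = 0.0138). Wasf3, which promotes actin branching, had -0.54 ± 0.23 (SE, unadjusted p = 0.0332). Of 41 CREB and MAP kinase genes 25 were above 0 (54.7% over all genes), with a median of 0.06. They were led by the protein kinase A subunit Prkar1b at 0.28 ± 0.12 (SE, unadjusted p = 0.0412), with the phosphatase Dusp5 at 0.73 ± 0.49 (SE, unadjusted p = 0.16).

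Housekeeping lists stood on the other side of 0. Of 72 nuclear-encoded genes of oxidative phosphorylation 67 had a fold change below 0 and 5 above it, against 54.7% of all genes above 0, with a median of -0.16, and none was under an unadjusted p of 0.05. The median was -0.03 without Fear-Recall animal 2 (26 of 72 above 0) and -0.01 without Fear-Only animal 5 (30 above 0). The 3 of smallest p were Ndufs1 at 0.38 ± 0.19 (SE, unadjusted p = 0.0732), Uqcrc1 at -0.23 ± 0.13 (SE, unadjusted p = 0.104) and Ndufa10 at -0.24 ± 0.14 (SE, unadjusted p = 0.113). Of 78 cytosolic ribosomal protein genes 68 were below 0 (median -0.12), among them Rpl3 at -0.23 ± 0.12 (SE, unadjusted p = 0.087) and Rpl7 at -0.20 ± 0.13 (SE, unadjusted p = 0.169). Without Fear-Recall animal 2 the ribosomal median was 0.0059, with 40 of 78 above 0, and without Fear-Only animal 5 it was -0.05, with 23 above 0. Of 31 proteasome subunits 27 were below 0 (median -0.15). Psmc2 alone was under 0.05 unadjusted (0.68% on the lower side over all genes), at -0.31 ± 0.14 (SE, unadjusted p = 0.0442). It was followed by Psmd12 at -0.30 ± 0.15 (SE, unadjusted p = 0.0603) and Psmc5 at -0.27 ± 0.14 (SE, unadjusted p = 0.08). The proteasome median was -0.06 without Fear-Recall animal 2 and -0.08 without Fear-Only animal 5.

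These medians differed between sets. For oxidative phosphorylation they were 0.09 in set 1, -0.41 in set 2, -0.02 in set 3 and -0.37 in set 5, and for ribosomal proteins 0.09, -0.43, -0.08 and -0.12. On average, genes detected per cell were higher and the reads held by the 50 top genes lower in Fear-Recall, by the amounts given above. Within sets 1, 2, 3 and 5 the median of genes detected differed by 1511, 433, 23 and -423. The part of genes detected and of the top genes in these list medians was not tested. In reporter-free neurons both lists had a median of -0.02.

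Chaperone genes had a median of -0.0044 over 41 members. Hsp90ab1 and Hsp90aa1, the cytosolic chaperones of steroid receptors and kinases, had -0.22 ± 0.09 (SE, unadjusted p = 0.0318) and -0.26 ± 0.13 (SE, unadjusted p = 0.0716), and the lectin chaperone Canx had -0.27 ± 0.15 (SE, unadjusted p = 0.0843). Cholesterol synthesis genes had a median of -0.03 over 28. Tm7sf2, a sterol reductase, had 20.2, 16.8, 21.1, 15.9 and 19.3 CPM in Fear-Recall, against 25.6, 38.5, 23.4 and 37.1 CPM in Fear-Only, without overlap, and a fold change of -0.71 ± 0.25 (SE, unadjusted p = 0.014). The sterol carrier Stard4 had -0.74 ± 0.46 (SE, unadjusted p = 0.133) and the retention factor Insig2 0.27 ± 0.17 (SE, unadjusted p = 0.142). DNA methylation and histone genes had a median of 0.0048 over 35 tested, with Hdac5 at 0.44 ± 0.29 (SE, unadjusted p = 0.149), Hdac11 at 0.48 ± 0.32 (SE, unadjusted p = 0.16) and Hdac2 at 0.34 ± 0.24 (SE, unadjusted p = 0.172). Among 17 tested glucocorticoid-responsive genes the median was 0.05, with the receptor gene Nr3c1 at -0.30 ± 0.18 (SE, unadjusted p = 0.119), Errfi1 at 0.53 ± 0.47 (SE, unadjusted p = 0.276) and the kinase gene Sgk1 at 0.20 ± 0.27 (SE, unadjusted p = 0.472).

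**Figure D4:**
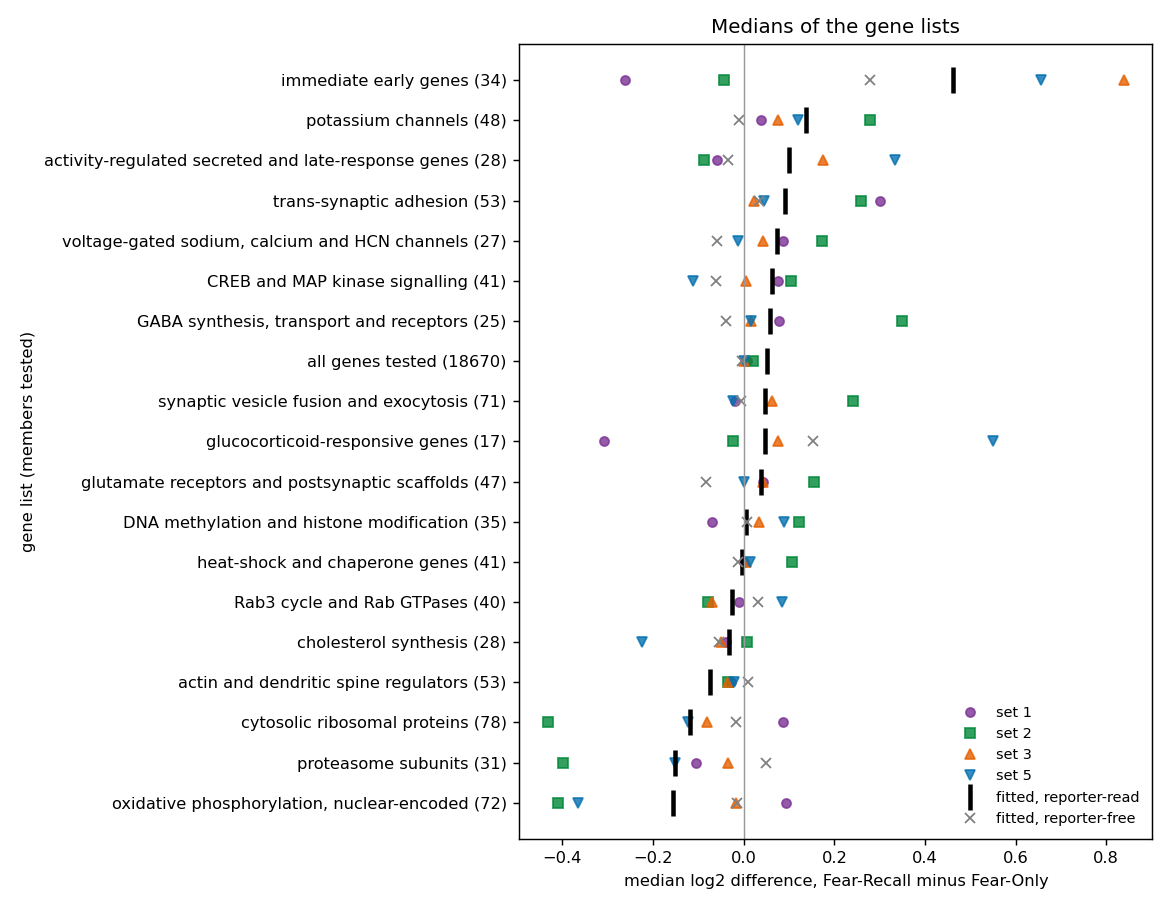
Median log2 difference between Fear-Recall and Fear-Only (horizontal axis) for each of the 18 pathway lists and for all 18670 genes (vertical axis, with members tested); black ticks are reporter-read neurons, grey crosses reporter-free neurons and coloured points the sets. Immediate early genes stand highest at 0.46 and oxidative phosphorylation lowest at -0.16.

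Marker lists of cell classes held no gene past the adjusted test. The 8 upper-layer markers had a median of 0.46 and the 10 deep-layer markers one of -0.16. The upper-layer median turned to -0.12 without animal 1 of either condition and was 0.04 without the set as a block, and the deep-layer median was -0.39 without Fear-Recall animal 5. Neurod6, an excitatory transcription factor, had 0.46 ± 0.20 (SE, unadjusted p = 0.0378) and Tbr1, of deep layers, -0.55 ± 0.40 (SE, unadjusted p = 0.188). Vip and Npas1, of Vip interneurons, had -0.50 ± 0.41 (SE, unadjusted p = 0.238) and -0.69 ± 0.38 (SE, unadjusted p = 0.0927), and Adarb2 -0.35 ± 0.44 (SE, unadjusted p = 0.442). The Sst interneuron genes Crhbp and Cort had -2.84 ± 1.59 (SE, unadjusted p = 0.0967) and -0.97 ± 0.57 (SE, unadjusted p = 0.112), and Fear-Recall animal 5 had 0 Crhbp counts. The fitted Crhbp fold change is no bound. Its set differences were 0.68, -0.70, 0.37 and -11.93, and it was -1.78 without Fear-Recall animal 5 and -0.27 without Fear-Only animal 5. Cort was nearest 0 at -0.14 when single animals were left out. Cplx3 and Lamp5 had 0.98 ± 0.54 (SE, unadjusted p = 0.09) and 0.97 ± 0.72 (SE, unadjusted p = 0.202), with Lamp5 at 0.16 without animal 1 of either condition. Sncg and Cck had -2.04 ± 1.30 (SE, unadjusted p = 0.141) and -0.29 ± 0.23 (SE, unadjusted p = 0.219), and Cox6a2 and Kcnc2 of Pvalb interneurons 0.48 ± 0.70 (SE, unadjusted p = 0.504) and 0.22 ± 0.44 (SE, unadjusted p = 0.616). Among the glial genes were Aldoc at -0.17 ± 0.27 (SE, unadjusted p = 0.547), Apoe at -0.27 ± 0.68 (SE, unadjusted p = 0.697), Mobp at -0.92 ± 0.64 (SE, unadjusted p = 0.175) and Cnp at 0.52 ± 0.59 (SE, unadjusted p = 0.397).

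Reporter-free neurons of the same conditions served as the comparison within animals. Their fit called 0 of 18274 genes (0.0%) with edgeR, 382 (2.09%) were under 0.05 unadjusted, and DESeq2 called 27. A direct test asked whether the difference between Fear-Recall and Fear-Only was itself different in reporter-read and reporter-free neurons. It called 0 of 19958 genes (0.0%) with edgeR, 325 (1.63%) were under 0.05 unadjusted, and DESeq2 called 2. These were Cdc20 and Cyp26b1, named after their values were seen, each with a count of 0 in 15 of the 32 sums. By edgeR nothing was shown to be particular to the reporter-read cells. The direct test holds animals with a sum of both kinds, which leaves out Fear-Only animals 1 and 4, so its differences are not those between the 2 separate fits.

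Npas4 in reporter-free neurons had a fold change of 0.39 (unadjusted p = 0.328). Its counts were 12.2, 34.2, 18.7, 45.05 and 36.7 CPM in reporter-free Fear-Recall animals 1 to 5, against 14.1, 19.2 and 36.6 CPM in reporter-free Fear-Only animals 2, 3 and 5. The separate reporter-free fit also holds Fear-Only animal 4, at 29.2 CPM. These groups overlapped, and in the direct test the difference was 1.07 (unadjusted p = 0.0203, edgeR adjusted p = 1). Arc, Dusp1, Egr4 and Jun had fold changes of 0.66, 0.63, 0.57 and 0.36 in the reporter-free edgeR fit, with an unadjusted p of 0.0322 for Arc. In the direct test their differences were 0.70, 0.49, 0.31 and 0.31 (unadjusted p = 0.105, 0.0998, 0.472 and 0.292). Tmsb10 and Ifi27 had reporter-free fold changes of 0.00 and -0.10, with differences of -0.44 (unadjusted p = 0.0184) and -0.90 (unadjusted p = 0.0179). Plekhb1 had -0.34 in reporter-free neurons with Fear-Only animal 4 at 8.01 CPM included, and a difference of -0.16 in the direct test without Fear-Only animals 1 and 4 (unadjusted p = 0.706).

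Among the genes of smallest p whose difference was more positive in reporter-read neurons were Ipo4, Zdhhc8 and Ache. Ache, which encodes acetylcholinesterase, had 178.2, 121.3, 137.2, 174.7 and 124.6 CPM in reporter-read Fear-Recall animals 1 to 5, against 121.1, 159.4 and 103.1 CPM in reporter-read Fear-Only animals 2, 3 and 5. In reporter-free neurons it had 115.35, 61.2, 93.1, 85.3 and 48.1 CPM in Fear-Recall, against 93.1, 146.4 and 161.8 CPM in Fear-Only. The groups overlapped in both kinds of cell, and outside animal 1 the reporter-free Fear-Recall values were about level with or below the lowest Fear-Only value. The difference of fold changes was 0.96 ± 0.26 (SE, unadjusted p = 0.00223), and the separate fits gave -0.22 in reporter-read neurons, with Fear-Only animal 1 included, and -0.97 in reporter-free neurons. The palmitoyltransferase Zdhhc8 and the importin Ipo4 had differences of 1.15 and 0.84.

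On the negative side stood Celf2, Rcor3, Nln and Scn2a. Celf2, a splicing regulator, had fold changes of -0.31 in reporter-read and 0.10 in reporter-free neurons, a difference of -0.48 (unadjusted p = 0.00376). Scn2a, the sodium channel of excitatory axons, had -0.31 and 0.19, a difference of -0.48 (unadjusted p = 0.00585). The corepressor gene Rcor3 and the peptidase gene Nln had differences of -1.41 and -1.18. For the 34 immediate early genes the median difference was 0.31, with 26 above 0. Over the 18670 genes also tested here the median difference was 0.05, with 9969 above 0.

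**Figure D5:**
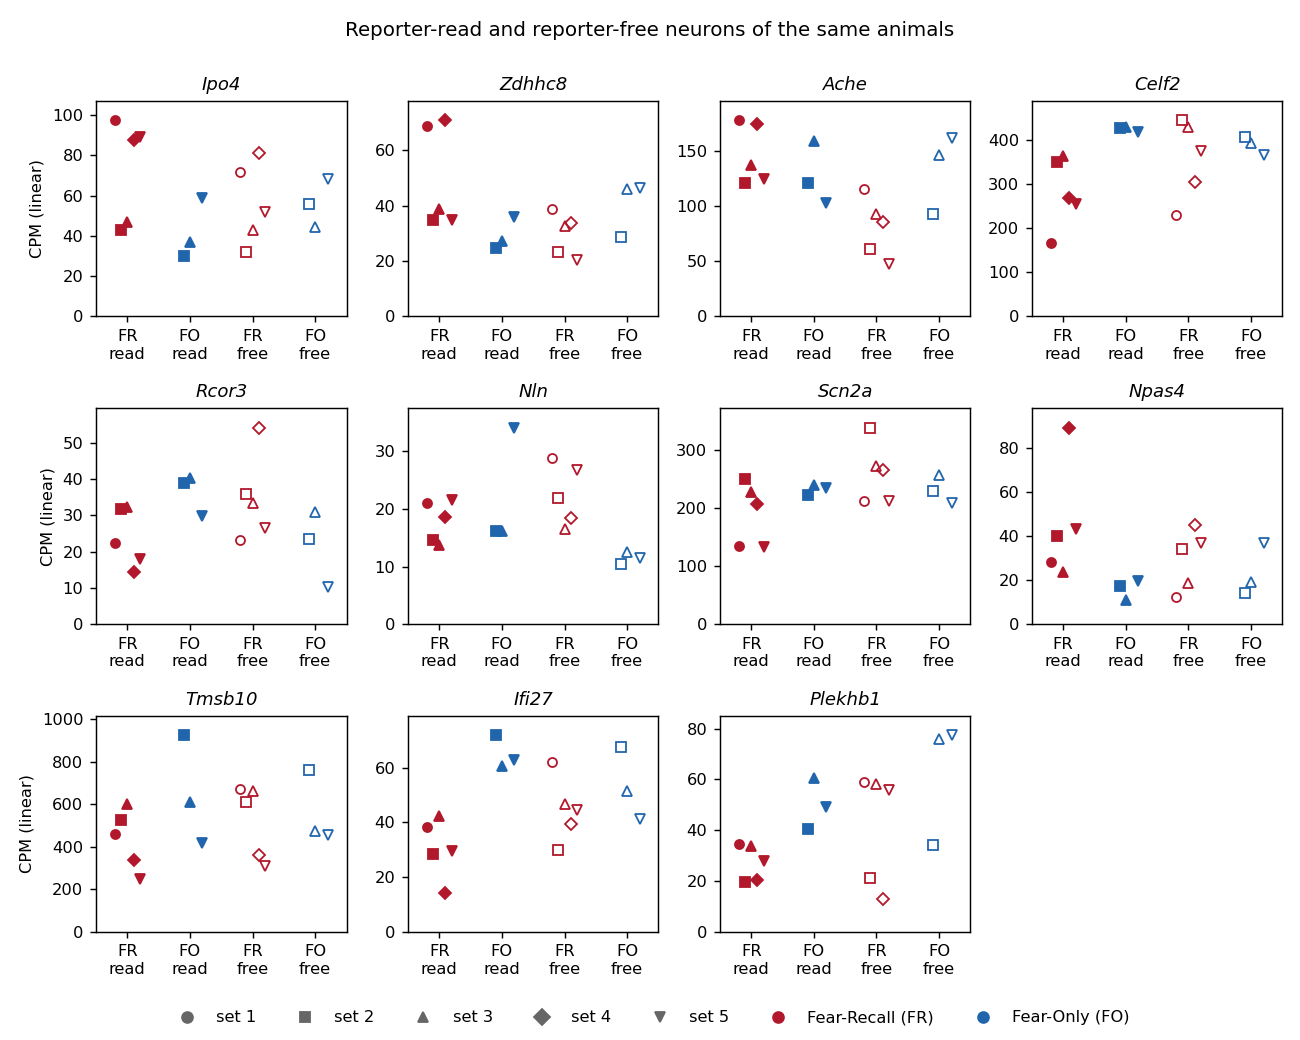
CPM on linear axes for 7 of the genes of smallest p in the direct test and for Npas4, Tmsb10, Ifi27 and Plekhb1; in each panel reporter-read Fear-Recall (FR), reporter-read Fear-Only (FO), reporter-free FR and reporter-free FO run left to right, with 1 point per animal. The reporter-read Fear-Recall animals lie above reporter-read Fear-Only for Npas4, from 23.7 to 88.9 CPM against 10.9 to 19.8 CPM.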

How the data were processed

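The authors deposited 1 table of counts per gene and cell, a whole number of reads for each of 23355 features in 3530 cells, and the reporter entered neither library sizes nor tests. Per the submitters' processing notes, Bowtie 0.12.2 and the builds mm8 and mm10 were used; the read counter was not given in the sources used here. Groups and animals were taken from the labels. Reads of cells with at least 1 reporter read were summed per animal with 10 or more such cells (17 sums, 9 residual degrees of freedom). Sums were tested with edgeR 4.0.16 (quasi-likelihood, TMM, filterByExpr with a minimum count of 10 and total of 15, condition plus set), adjusted by Benjamini-Hochberg at 0.05. CPM are TMM-scaled, except marker sums and marker ranges, which are plain CPM. DESeq2 1.42.0 and limma 3.58.1 were alternatives. The reporter-read, reporter-free and direct-test designs were run with edgeR and DESeq2 on simulated data, made without differences between sets. The limma fit and the fits under other settings were not run on simulated data. Reporter-free cells were fitted likewise (18 sums), and both kinds together with an animal term (32 sums).

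Pairing animals by number was part of the rule for this comparison, and the labels do not say what a number marks. Same-numbered Fear-Recall and Fear-Only sums deviated together from their condition means, with Pearson's r of 0.584, 0.593, 0.556 and 0.478 across 7059 genes in sets 1, 2, 3 and 5. Differently numbered pairs ranged from -0.478 to 0.519 (Fear-Recall 3 with Fear-Only 2), and each animal correlated best with its own number. The condition means were taken over these same sums, so a positive value for the own number lowers the others, and part of the contrast is arithmetic. Genes are not independent replicates, so these values carry no test.

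Cells were clustered with scanpy 1.11.5 (2000 variable genes, 30 components, 15 neighbours, Leiden 1 with leidenalg 0.10.2) under Python 3.11.15, and each cluster was called excitatory or inhibitory by its marker means. Doublets were not called, since each cell is a library of its own. The members and gene lists were chosen with earlier results of these data known. Genes are named by rule: among those averaging 4 log2 CPM or more, the 8 of smallest p in each direction, then up to 3 of each pathway list and up to 2 of each marker list at 3 log2 CPM or more. Predicted genes are not named, and a few genes the rule picks are not reported here. All 34 immediate early genes were also looked at, and those named beyond the rule (Arc, Jun, Fos, Egr1, Nr4a1, Ier3, Nr4a2, Homer1) were chosen after their values were seen. Positions are those of the same symbol in GENCODE vM21 (GRCm38). Promoters come from RefSeq (GRCm38.p6). The ± values of shares of cells are SDs over animals. Counts are of reads and not of molecules, as reads carry no molecular identifiers.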

Additional observations from a re-analysis of the deposited data

Results flagged for a closer look

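A sample of Fear-Recall (5 animals) or Fear-Only (4 animals) was marked when its gap to the nearest other sample, divided by the range of the group, exceeded Dixon's critical value. Of the groups examined 8 (4.40%) were marked, and chance alone marks about 1 in 20. The median reporter level per member cell was 180.1 CPM in Fear-Recall animal 1 and 249 CPM in Fear-Only animal 1. In Fear-Recall animal 1 Hapln4 stood at 103 CPM, and in Fear-Recall animal 5 Egr4 stood at 162 CPM. In Fear-Recall animal 2 Kcnc2 stood at 51.5 CPM. In Fear-Only animal 1 Hdac5 stood at 63.5 CPM. Fear-Only animal 2 was far above the other Fear-Only animals in Psmd12 at 281.5 CPM and Crhbp at 310 CPM. These are values without a weighing of their source.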

How the results depend on the processing

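The adjusted edgeR count of 0 genes was the same under 25 of the 26 other settings tried for reporter-read neurons, 1 of which, a minimum of 20 cells per sum, removed no sum and repeats the same fit. DESeq2 was the exception and called 19, of which 16 had a fitted log2 fold change beyond 5 and 15 had a sum of 0 in at least 1 animal; the cause was not tested. DESeq2 called 27 genes in reporter-free neurons and 2 in the direct test. The replicate block changed no call: without it edgeR called 0 genes and 1.48% were under 0.05 unadjusted, and with only Fear-Recall and Fear-Only sums and the block it called 0 and 649 genes were. Leaving out single animals gave 0 calls each time, and between 1.42% (without Fear-Only animal 5) and 3.90% (without Fear-Only animal 3) of genes were under 0.05. The covariate of Rprm-led clusters, added after the data were seen, left 155. Restricting to the pos gate left 3 Fear-Recall and 2 Fear-Only animals and gave 0 calls.

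The 16 genes of smallest p kept their direction under all 26 settings. They were chosen by p in the main fit, and most settings share its data, so this follows in part from the choice. Of 77 other named genes 24 changed sign at least once. In the pos gate alone these were Stxbp6 (0.0085), Gabra2 (-0.29), Nalcn (0.14), Tbr1 (0.39), Cnp (-0.23), Nr4a1 (0.51), Ier3 (0.37) and Homer1 (0.50). Excitatory neurons alone turned Gad1 (-3.18), Hdac5 (-0.25), Sgk1 (-0.10), Cck (0.31), Fos (-0.041), Egr1 (-0.11) and Nr4a1 (0.20), and inhibitory neurons alone Cacna1i (-0.71), Neurod6 (-4.89) and Aldoc (0.38). Over reporter-read cells of all conditions Gad1 averaged 0.145 CPM in excitatory and 1341 CPM in inhibitory cells, so its turned value is near the floor. Neurod6 was likewise a marker of the other class. A reporter read kept after thinning gave Sgk1 (-0.033), Cox6a2 (-0.33), Kcnc2 (-0.0086) and Nr4a1 (0.24), and 10 or more reporter reads gave Cort (0.21), Apoe (0.070), Nr4a1 (0.062) and Nr4a2 (0.23). The Rprm-led covariate gave Tbr1 (0.056), Adarb2 (0.19), Apoe (0.11) and Nr4a1 (0.34). No replicate block gave Apoe (0.099), and equal weight per cell Kcnc2 (-0.018) and Nr4a1 (0.19). Leaving out single animals gave -0.0072 to 0.57 for Sgk1, -0.94 to 0.093 for Tbr1, -0.89 to 0.0040 for Vip, -0.045 to 0.34 for Kcnc2, -0.37 to 0.030 for Aldoc, -0.80 to 0.39 for Apoe, -0.25 to 0.65 for Fos, -0.092 to 0.23 for Egr1, -0.62 to 0.58 for Nr4a1, -0.47 to 0.091 for Nr4a2 and -0.46 to 0.014 for Homer1. By over 1.5 times the fold change moved in 48 of the 77 and in 0 of the 16 when single animals were left out. The 16 were picked by small p in the main fit, so their contrast with the 77 is no measure of robustness. The inhibitory share differed by -9.04 to -1.78 points and median genes by 386 to 992 when single animals were left out, always with the same sign. Paired by set, with the replicate block added after the data were seen, they differed by -4.06 points (p = 0.625) and 386 genes (p = 0.375) in exact sign-flip permutation tests over 4 sets, whose smallest p is 0.125. The cause of these changes was not tested.

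Fear-Only rested on 4 animals, of which animal 1 had 36 cells and animal 5 had 39, so low genes there are set by few cells. An adjusted p above 0.05 does not show that the conditions were alike.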
